A study of Mus musculus with 6 samples.

Results

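The 34 genes described here take up glucose, split it to pyruvate, pass the carbon to lactate, to the mitochondrion or to the pentose phosphate pathway, and set the pace of these steps. The list was drawn by function, with earlier results of these data known. For each symbol the probe set with the highest mean was taken from those annotated to that symbol alone, which gave 29 of the 34 genes a value among 22180 named genes. Aldoa and Tkt have only probe sets annotated to several symbols, and no probe set is listed for Gpi1, Eno1 and G6pdx, so these 5 genes are not analysed here. All 29 measured genes passed the filter on low levels and were among the 15526 genes tested.

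The samples are 6 arrays of RNA from c-Kit+ leukemic cells sorted from mouse spleen at end-stage disease, 3 per genotype. The control is Mx1-Cre, Cbfb+/56M, and the other genotype, called Chd7f/f here, carries in addition floxed alleles of Chd7, a chromatin remodelling ATPase. Both genotypes received the mutagen ENU and pIpC, which induces the interferon-responsive Mx1-Cre and so switches on the Cbfb-MYH11 fusion allele 56M, and the comparison asks what loss of Chd7 changes in these leukemias. The design text calls the samples independent without saying that each is 1 mouse, and a p-value therefore speaks only of the spread seen among these arrays; Mx1-Cre is not confined to leukemic cells. Values are log2 levels made by RMA, which brings the arrays to a common distribution; 1 unit is a doubling, and differences are Chd7f/f minus control.

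Glycolysis turns glucose into pyruvate with a small yield of ATP, and its intermediates feed nucleotide, serine and lipid synthesis in dividing cells. Many steps are encoded by several genes whose products differ in regulation and in tissue: muscle, liver and platelet forms of phosphofructokinase, for example, or a pyruvate kinase gene used in red cells and liver (Pklr) beside the one used in most other tissues (Pkm). Hypoxia-inducible factors and MYC are known to drive many of these genes. On an array the levels of different probe sets cannot be set against each other, so isoform choice is described below by how the difference between the members of a pair moved from array to array.

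Promoter windows from RefSeq (GRCm38.p6), 250 bases before to 50 after a start site, were matched by symbol for 28 of the 29 measured genes, with 41 windows in all. The 5 genes shown had either a value that set 1 array apart or the largest difference between genotypes, and were chosen after their values were seen. Capitals mark, on either strand, the letters ACGTG (the core that hypoxia-inducible factors read, also contained in the E-box CACGTG of MYC and MLX proteins), GATAA (read by GATA factors) and CACCC (read by KLF factors). Pklr has separate starts, the upstream of which is known from red cells and the downstream from liver; both are given, and the array does not separate them. The windows lie at chr3:89135892-89136191, plus strand, and chr3:89136373-89136672, plus strand, for Pklr; at chr4:119108495-119108794, plus strand, for Slc2a1; at chr11:120948817-120949116, plus strand, for Slc16a3; at chr3:104638414-104638713, plus strand, for Slc16a1; and at chrX:106186850-106187149, plus strand, for Pgk1.
Pklr, upstream start: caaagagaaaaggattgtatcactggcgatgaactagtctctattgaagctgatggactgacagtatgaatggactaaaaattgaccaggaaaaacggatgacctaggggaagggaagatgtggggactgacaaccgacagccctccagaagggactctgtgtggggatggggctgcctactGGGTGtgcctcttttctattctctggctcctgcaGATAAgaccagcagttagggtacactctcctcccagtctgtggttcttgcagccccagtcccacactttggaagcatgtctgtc
Pklr, downstream start: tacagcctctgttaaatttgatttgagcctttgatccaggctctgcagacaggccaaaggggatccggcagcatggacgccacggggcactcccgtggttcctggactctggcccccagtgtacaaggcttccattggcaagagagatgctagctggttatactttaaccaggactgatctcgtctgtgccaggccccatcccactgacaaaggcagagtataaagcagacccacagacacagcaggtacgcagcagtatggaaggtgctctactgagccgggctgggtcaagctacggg
Slc2a1: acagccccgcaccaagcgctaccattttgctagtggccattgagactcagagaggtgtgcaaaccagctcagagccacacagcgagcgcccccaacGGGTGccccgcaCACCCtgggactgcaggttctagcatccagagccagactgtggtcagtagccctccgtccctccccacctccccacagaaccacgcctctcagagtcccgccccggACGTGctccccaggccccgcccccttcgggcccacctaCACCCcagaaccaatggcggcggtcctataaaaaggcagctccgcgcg
Slc16a3: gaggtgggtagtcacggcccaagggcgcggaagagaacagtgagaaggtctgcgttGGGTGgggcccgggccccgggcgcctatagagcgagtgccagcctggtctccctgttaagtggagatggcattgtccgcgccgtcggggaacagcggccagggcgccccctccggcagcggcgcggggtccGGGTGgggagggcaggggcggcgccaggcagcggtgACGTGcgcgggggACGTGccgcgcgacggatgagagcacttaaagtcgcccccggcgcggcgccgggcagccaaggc
Slc16a1: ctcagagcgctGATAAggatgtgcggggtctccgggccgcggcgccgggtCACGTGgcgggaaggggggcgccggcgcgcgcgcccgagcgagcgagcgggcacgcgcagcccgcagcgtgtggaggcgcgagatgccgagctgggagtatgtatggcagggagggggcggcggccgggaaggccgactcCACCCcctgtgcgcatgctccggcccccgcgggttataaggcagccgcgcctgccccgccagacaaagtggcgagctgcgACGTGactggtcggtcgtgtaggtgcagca
Pgk1: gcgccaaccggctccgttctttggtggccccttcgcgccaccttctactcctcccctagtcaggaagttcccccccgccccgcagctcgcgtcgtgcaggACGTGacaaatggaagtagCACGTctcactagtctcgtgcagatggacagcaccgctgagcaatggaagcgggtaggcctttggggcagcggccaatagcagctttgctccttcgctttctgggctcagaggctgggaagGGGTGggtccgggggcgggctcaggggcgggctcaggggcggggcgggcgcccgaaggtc

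ACGTG occurred in 19 of the 41 windows (46.3%), against 19.6% of all 32851 windows of this length. By gene it occurred in 16 of the 28, some of which have several windows, and the share over all genes was not counted. The members' windows were also richer in CG pairs, with a median of 16 against 7 over all windows, and the letters ACGTG hold such a pair; the part of this composition was not tested. CACGTG was found in 12.2% of the members' and 7.15% of all windows, GATAA in 24.4% and 25.4%, and CACCC in 70.7% and 57.5%. Among the windows shown, that of Slc16a1 held 2 ACGTG sites, 1 of them as CACGTG, those of Slc16a3 and Pgk1 held 2 each and that of Slc2a1 held 1. The upstream window of Pklr held GATAA and CACCC once each, and the downstream one held none of the motifs. A match is a run of letters and says nothing of binding in these cells.

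No glucose use gene differed between the genotypes after adjustment. None of the 29 passed an adjusted p of 0.05 (limma, smallest adjusted p = 0.9998), where 0% of the 15526 tested genes did, and 0 of 29 had an unadjusted limma p under 0.05, against 1.84% of all genes. Chd7f/f leukemias had the higher mean for 16 members and the lower for 13, and 43.7% of all genes were higher. Their median difference was 0.018, beside -0.027 over all genes. A fold of at least 1.5 in either direction was reached by 2 members, Slc16a3 and Pklr, where 4.87% of all genes reached it. The 3 Chd7f/f values lay apart from the 3 control values for 1 member, Slc16a3, against 6.81% of all genes. Without control replicate 1, 7 members were higher and 22 lower, with a median of -0.079; without Chd7f/f replicate 1, 21 were higher and 8 lower, with a median of 0.12.

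**Figure D1:**
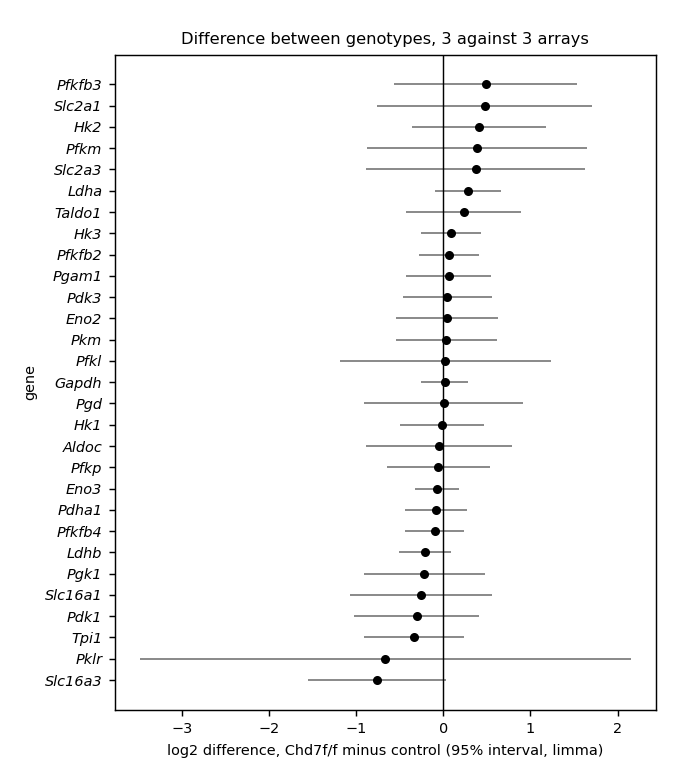
Log2 difference between genotypes (Chd7f/f minus control, x axis) for the 29 measured genes (y axis, ordered by difference); points are limma estimates and lines their 95% intervals, 3 arrays per genotype. Every interval contains 0, the differences run from -0.76 (Slc16a3) to 0.49 (Pfkfb3), and Pklr has the widest interval, -3.48 to 2.16.

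Many glucose use genes had a wide range over the arrays. The range over the 6 arrays exceeded 1 log2 unit for 15 of 29 members (51.7%), against 22.3% of all tested genes. Over the 3 arrays of 1 genotype it did so for 7 members in the control and 6 in Chd7f/f (24.1% and 20.7%), against 11.4% and 11.8% of all genes. Among the genes in the upper part of tested levels, above the median, the range over the 6 arrays exceeded 1 for 11 of 21 members and 28.8% of genes. The lowest values lay mostly on the arrays numbered 1. Control replicate 1 held the lowest value of 10 members and Chd7f/f replicate 1 that of 12 (34.5% and 41.4%), where these arrays were lowest for 16.5% and 27.7% of all genes. The members' highest values were spread, with 4 members on control replicate 1 and 3 on Chd7f/f replicate 1 (13.8% and 10.3%, against 24.4% and 18.7% of all genes) and 8 on Chd7f/f replicate 2 (27.6%, against 17.6%). In control replicate 1, 5 members lay below the other 5 arrays by at least 0.5 and 2 lay above them by as much, against 3.34% and 3.46% of all genes. In Chd7f/f replicate 1, 4 members lay below by at least 0.5 and none above, against 5.8% and 2.25% of all genes. Slc16a3 lay above by as much in control replicate 2 and Pfkl in Chd7f/f replicate 2, as did 1.42% and 1.05% of all genes. No member did so on the remaining arrays or in the other directions, where the background was 0.193% below for control replicate 2, 0.554% below and 0.535% above for control replicate 3, 1.22% below for Chd7f/f replicate 2, and 0.148% below and 0.554% above for Chd7f/f replicate 3. The distance of 0.5 was set after the data were seen.

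**Figure D2:**
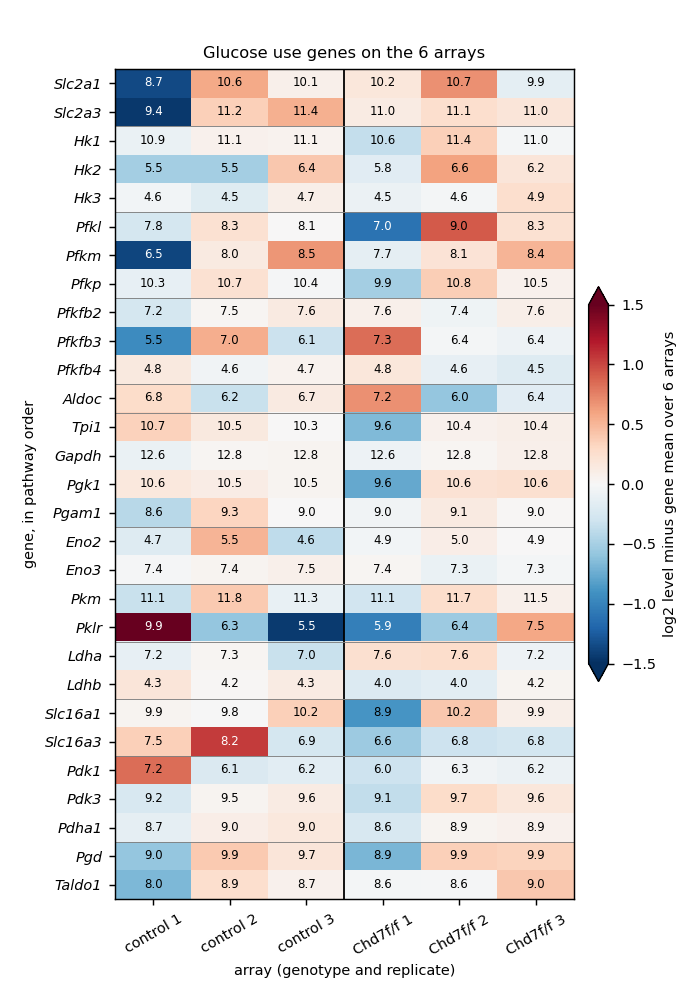
Log2 RMA level of the 29 measured genes (rows, in pathway order) on the 6 arrays (columns); numbers are levels and colour is the level minus the gene's mean over the 6 arrays, with thin lines between steps of the pathway. Control replicate 1 is low for Slc2a1, Slc2a3 and Pfkm and high for Pklr and Pdk1, and Chd7f/f replicate 1 is low for Pfkl, Tpi1, Pgk1 and Slc16a1.

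Of the arrays as a whole, medians ran from 4.72 to 4.84 and correlations across genes from 0.942 to 0.984. Kit, the receptor behind the sort, was between 11.68 and 12.48 on all arrays. Chd7 was at 6.17, 7.54 and 5.32 on the control arrays and at 5.48, 6.498 and 5.91 on the Chd7f/f arrays, with overlapping groups; where its probes lie relative to the deleted part is not given in the sources used here. Control replicate 2 alone had a high level of Xist, 10.08, and a low level of the Y-linked gene Eif2s3y, 4.43, the female pattern; the X-linked members Pgk1, Pdk3 and Pdha1 were at neither extreme on that array. Markers of T and NK cells, B cells and stroma reached the filter for 3 of 9, 3 of 6 and 6 of 7 genes and were at 6.13 or below, except Cd79a at 7.18 in control replicate 2. Monocyte and macrophage markers (11 higher and 1 lower in Chd7f/f, median 0.43), neutrophil markers (6 and 1, median 0.21), mast cell and basophil markers (5 and 1, median 0.24) and c-Kit progenitor markers (7 and 1, median 0.195) had 0 genes passing the adjusted threshold, nor did erythroid (2 and 6, median -0.16) and platelet markers (0 and 2, median -0.87). Of the 12 monocyte and macrophage markers 6 were past 1.5-fold, and Mpeg1, a macrophage pore-forming protein, was the 1 with an unadjusted p under 0.05 (difference 1.12, adjusted p = 0.9998 from limma). Leaving out 1 array turned the median to -0.16 for neutrophil markers (without Chd7f/f replicate 3) and to 0.055 for erythroid markers (without Chd7f/f replicate 1).

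Glucose enters these cells through carriers of the SLC2A family. Slc2a1, which encodes the widely expressed carrier GLUT1, was at 8.68, 10.59 and 10.10 on the control arrays and at 10.20, 10.72 and 9.88 on the Chd7f/f arrays. Slc2a3, encoding the high-affinity carrier GLUT3, was at 9.39, 11.19 and 11.37 on the control arrays and at 10.96, 11.08 and 11.02 on the Chd7f/f arrays. Both carriers were lowest in control replicate 1, by 1.20 and 1.57 below the next array, or 2.3-fold and 2.97-fold. On the other 5 arrays the genotypes overlapped for Slc2a1, while for Slc2a3 the remaining control values lay above the Chd7f/f values. The genotype differences of 0.48 (SE 0.51) for Slc2a1 and 0.37 (SE 0.52) for Slc2a3 rested on control replicate 1: without it they were -0.079 and -0.26. The difference Slc2a3 minus Slc2a1 stayed between 0.37 and 1.27. A further probe set of Slc2a1, at 4.52 to 5.196, gave a genotype difference of -0.20, but it lies near the array medians, where a level may be background.

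Hexokinases trap glucose by phosphorylation. Hk1, the form most cells use, was at 10.91, 11.07 and 11.05 on the control arrays and at 10.65, 11.36 and 10.97 on the Chd7f/f arrays, a difference of -0.015. Hk2, the form induced by insulin, hypoxia and transformation, was at 5.4999, 5.51 and 6.42 on the control arrays and at 5.84, 6.62 and 6.199 on the Chd7f/f arrays. Its low values were those of control replicates 1 and 2, the third control array lay within the Chd7f/f range, and the difference was 0.41 (SE 0.32) with a 95% interval of -0.36 to 1.18. With 1 array left out it lay between 0.21 (without Chd7f/f replicate 2) and 0.715 (without control replicate 3). Hk2 minus Hk1 was at -5.41, -5.56 and -4.64 on the control arrays and at -4.80, -4.75 and -4.77 on the Chd7f/f arrays. The pair thus stood alike on all 3 Chd7f/f arrays and on control replicate 3 and lower on the other control arrays, without a separation of the groups (difference 0.43, exact two-sided permutation p = 0.4). Hk3, a form of myeloid cells, was at 4.59, 4.45 and 4.72 on the control arrays and at 4.54, 4.61 and 4.88 on the Chd7f/f arrays, near the array medians, where a level may be background.

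Phosphofructokinase commits sugar phosphate to glycolysis, and its genes Pfkl and Pfkm were lowest on different arrays. Pfkl, the liver type, was at 7.81, 8.30 and 8.08 on the control arrays and at 6.97, 8.996 and 8.31 on the Chd7f/f arrays. Pfkm, the muscle type, was at 6.49, 8.01 and 8.53 on the control arrays and at 7.74, 8.07 and 8.38 on the Chd7f/f arrays. Pfkl was lowest in Chd7f/f replicate 1, by 0.84, and Pfkm in control replicate 1, by 1.25. Pfkp, the platelet type, varied less, at 10.30, 10.65 and 10.41 on the control arrays and at 9.91, 10.80 and 10.49 on the Chd7f/f arrays. Pfkm minus Pfkl accordingly was -1.32 on the first control array and 0.76 on the first Chd7f/f array, the ends of a range of 2.09, with the groups overlapping (exact permutation p = 0.6). Genotype differences were 0.026, 0.39 and -0.057 for Pfkl, Pfkm and Pfkp, and that of Pfkm was -0.21 without control replicate 1.

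The PFKFB enzymes make and remove fructose 2,6-bisphosphate, the activator of phosphofructokinase. Pfkfb3, whose enzyme mostly makes it and which is hypoxia-inducible, was at 5.51, 7.002 and 6.13 on the control arrays and at 7.30, 6.42 and 6.38 on the Chd7f/f arrays. It was lowest in control replicate 1 and highest in Chd7f/f replicate 1, and its difference of 0.49 (SE 0.43), the largest positive value of the members, was 0.13 without the first, 0.19 without the second and -0.17 without both. Pfkfb2, another of these enzymes, was at 7.24, 7.53 and 7.63 on the control arrays and at 7.58, 7.44 and 7.59 on the Chd7f/f arrays and differed by 0.067. Pfkfb4 was at 4.83, 4.62 and 4.73 on the control arrays and at 4.85, 4.55 and 4.48 on the Chd7f/f arrays, near the array medians, and differed by -0.099. Pfkfb3 minus Pfkfb2 ran from -1.73 in control replicate 1 to -0.28 in Chd7f/f replicate 1.

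In the middle of the pathway, Gapdh varied little, and Tpi1 and Pgk1 were low on 1 array. Gapdh, the dehydrogenase often taken as a constant, was between 12.63 and 12.81 on all arrays with a difference of 0.018, and 97.4% of tested genes had as wide a range or a wider one; it has many near-identical pseudogenes, and 2 further probe sets gave 0.024 and -0.18. Tpi1, triose phosphate isomerase, was at 10.67, 10.46 and 10.32 on the control arrays and at 9.65, 10.38 and 10.41 on the Chd7f/f arrays. Pgk1, the kinase of the first ATP-forming step, was at 10.57, 10.53 and 10.46 on the control arrays and at 9.64, 10.62 and 10.65 on the Chd7f/f arrays. Both were lowest in Chd7f/f replicate 1, by 0.68 and 0.82, and the other 5 values of Pgk1 lay within 0.2 of one another. Their differences were -0.34 and -0.21, and without Chd7f/f replicate 1 they were -0.087 and 0.12. Pgam1, the mutase, was between 8.59 and 9.33 and differed by 0.062, or -0.0082 when its probe sets were averaged. Aldoc, the brain-type aldolase, was at 6.81, 6.202 and 6.67 on the control arrays and at 7.22, 5.96 and 6.37 on the Chd7f/f arrays, highest in Chd7f/f replicate 1 and differing by -0.044. Eno2, the neuronal enolase, was at 4.75, 5.46 and 4.56 on the control arrays and at 4.90, 5.05 and 4.94 on the Chd7f/f arrays, near the array medians, a difference of 0.042. Eno3, the muscle form, was at 7.35, 7.42 and 7.45 on the control arrays and at 7.40, 7.27 and 7.34 on the Chd7f/f arrays, a difference of -0.069.

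Pyruvate kinase gave the widest range among the 14 isoform pairs, 4.67. Pkm, the gene of most tissues and tumours, was at 11.09, 11.81 and 11.31 on the control arrays and at 11.13, 11.69 and 11.50 on the Chd7f/f arrays, a difference of 0.038 (SE 0.24). Pklr, used in red cells and liver, was at 9.93, 6.33 and 5.47 on the control arrays and at 5.88, 6.36 and 7.49 on the Chd7f/f arrays. Control replicate 1 lay 2.44 above the next array, or 5.41-fold, and 0.386% of tested genes had a range over the 6 arrays as wide as the 4.45 of Pklr. Its means were 7.24 ± 2.36 for control and 6.58 ± 0.82 for Chd7f/f (SD, n = 3 each). The difference of -0.66 (SE 1.16) turned to 0.68 without control replicate 1, to 1.03 without both arrays numbered 1 and to 0.53 with array weights. Pklr minus Pkm was -1.16 in control replicate 1 and between -5.84 and -4.01 elsewhere (exact permutation p = 1 between genotypes).

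Some erythroid markers were high on the same arrays as Pklr. Slc4a1, the red cell anion exchanger, was at 11.47, 6.73 and 6.35 on the control arrays and at 5.92, 7.28 and 9.14 on the Chd7f/f arrays, and its highest arrays were, as for Pklr, control replicate 1 and then Chd7f/f replicate 3. Tfrc, the transferrin receptor, was at 11.06, 7.67 and 9.03 on the control arrays and at 6.36, 8.14 and 9.46 on the Chd7f/f arrays. Slc4a1 and Tfrc were lowest in Chd7f/f replicate 1, while Pklr was lowest in control replicate 3. Of 13 erythroid markers 8 have a probe set of their own, and control replicate 1 held the highest value of 4 and the lowest of 2, Car1 and Gata1. The mean of the 8 relative to their averages was 0.68, -0.38 and 0.077 on the control arrays and -0.79, -0.0025 and 0.41 on the Chd7f/f arrays. Slc4a1 and Gata1 were named after their values were seen. In bulk RNA fewer cells of a type and less RNA per cell cannot be told apart, and the part of red cell precursors in the Pklr values was not tested. The mean of 6 mast cell and basophil genes was also lowest on that array, at -0.57 against -0.0046 to 0.31 elsewhere, with 3 of the 6 at their lowest there, Hdc, Fcer1a and Ms4a2. The platelet genes Gp9 and Itga2b were at opposite ends, Gp9 at 10.81 against 6.41 to 7.71 elsewhere and Itga2b at 9.05 against 9.32 to 10.34. The part of these cells in the low values of Slc2a1, Slc2a3 and Pfkm was not tested.

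**Figure D3:**
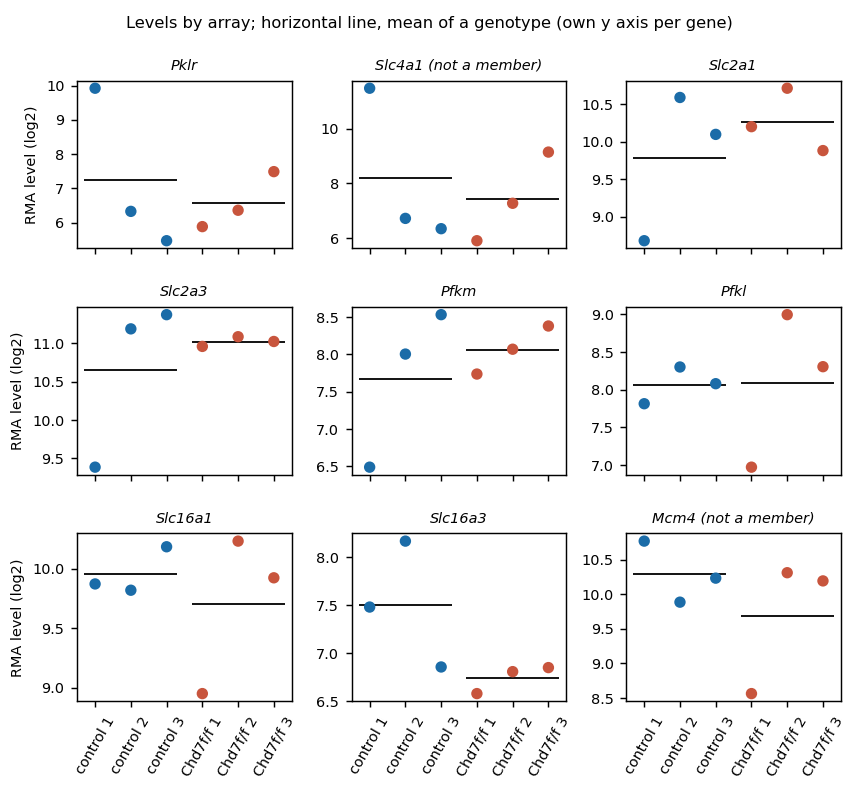
Log2 RMA level (y axis, its own scale for each gene) on each array (x axis) of 7 glucose use genes and of Slc4a1 and Mcm4; blue points are control, red points Chd7f/f, and lines are means of 3 arrays. Pklr and Slc4a1 share their top array, control replicate 1, where Slc2a1, Slc2a3 and Pfkm are lowest, and Pfkl, Slc16a1 and Mcm4 are lowest in Chd7f/f replicate 1.

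Lactate is made from pyruvate by lactate dehydrogenase and leaves through monocarboxylate carriers. Ldha, the form favouring lactate, was at 7.18, 7.33 and 6.97 on the control arrays and at 7.55, 7.57 and 7.23 on the Chd7f/f arrays. Ldhb was at 4.34, 4.18 and 4.29 on the control arrays and at 3.96, 4.01 and 4.21 on the Chd7f/f arrays, close to the filter level of 4.13, where it may be background. Ldha differed by 0.29 (SE 0.16) and Ldhb by -0.21 (SE 0.12), and neither passed. Ldhb minus Ldha had the smallest exact p of the 14 isoform pairs, 0.2, with a difference of -0.50 and overlapping groups. The adjusted p was 0.84 over the 14 pairs, and 3 against 3 arrays cannot give an exact p below 0.1.

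Slc16a3, which encodes the lactate exporter MCT4, had the largest difference of the members and their smallest p. It was at 7.48, 8.17 and 6.86 on the control arrays and at 6.58, 6.81 and 6.85 on the Chd7f/f arrays. Control replicates 1 and 2 were high, while control replicate 3 exceeded the highest Chd7f/f array by less than 0.01. Means were 7.50 ± 0.66 for control and 6.75 ± 0.15 for Chd7f/f (SD, n = 3 each), a difference of -0.76 (SE 0.33) with a 95% interval of -1.55 to 0.035. Its adjusted p from limma was 0.9998. Over the alternatives it kept its sign, from -1.08 without control replicate 3 to -0.42 without control replicate 2. Slc16a1, which encodes the related carrier MCT1, was at 9.87, 9.82 and 10.18 on the control arrays and at 8.95, 10.23 and 9.92 on the Chd7f/f arrays. Chd7f/f replicate 1 was its lowest array, by 0.87, and the difference of -0.26 (SE 0.34) was 0.12 when that array was left out. Slc16a3 minus Slc16a1 differed by -0.50 between genotypes (exact permutation p = 0.5), or by -0.097 without control replicate 2 and -0.94 without control replicate 3. Bsg, the chaperone of these carriers, was likewise lowest in Chd7f/f replicate 1, at 9.99 against 10.95 to 11.12; it is no member and was named after its values were seen.

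At the entry to the mitochondrion, pyruvate dehydrogenase kinases switch off the complex that Pdha1 helps to form. Pdk1, a hypoxia-inducible kinase, was at 7.15, 6.10 and 6.16 on the control arrays and at 6.01, 6.27 and 6.23 on the Chd7f/f arrays. Control replicate 1 stood 0.89 above a narrow band of the other 5, and the difference of -0.31 (SE 0.30) was 0.035 without it. Pdk3, another kinase of the complex, was at 9.21, 9.50 and 9.58 on the control arrays and at 9.08, 9.73 and 9.63 on the Chd7f/f arrays, a difference of 0.047. Pdha1 lay between 8.63 and 9.04 and differed by -0.086. Pdk3 minus Pdk1 was 2.06 in control replicate 1 and between 3.07 and 3.46 elsewhere.

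The pentose phosphate pathway supplies NADPH and ribose. Pgd, its second dehydrogenase, was at 8.96, 9.93 and 9.72 on the control arrays and at 8.85, 9.89 and 9.88 on the Chd7f/f arrays. Taldo1, the transaldolase of its other branch, was at 7.96, 8.88 and 8.70 on the control arrays and at 8.60, 8.61 and 9.04 on the Chd7f/f arrays. Both arrays numbered 1 were low for Pgd, and control replicate 1 was the lowest for Taldo1. The differences were 0.0036 with an interval of -0.91 to 0.92, and 0.23 with an interval of -0.43 to 0.89.

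**Figure D4:**
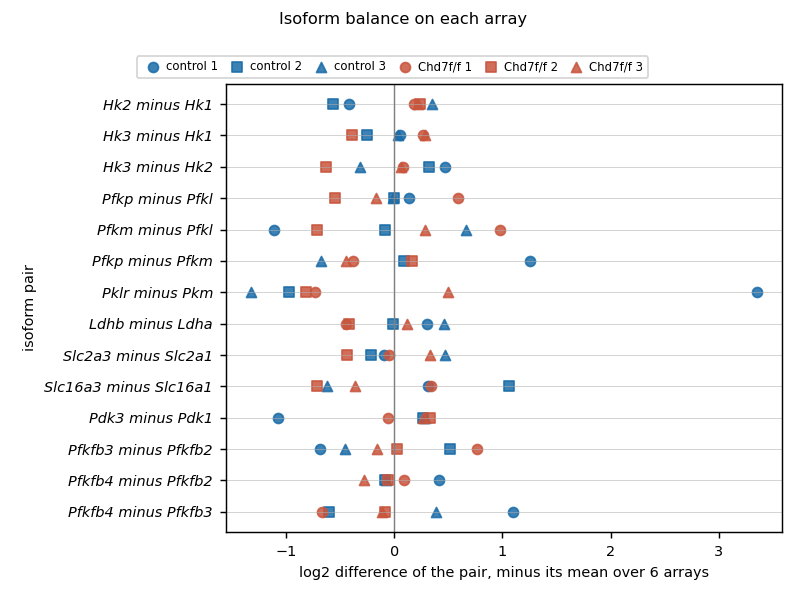
Log2 difference between the genes of 14 isoform pairs (rows) on each array, minus the pair's mean over the 6 arrays (x axis); blue is control, red Chd7f/f, and the shape gives the replicate. The genotypes overlap for every pair, and control replicate 1 stands apart for Pklr minus Pkm, Pfkp minus Pfkm and Pdk3 minus Pdk1.

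Over all measured members, the mean of the levels relative to each gene's average was -0.13, 0.13 and 0.01 on the control arrays and -0.21, 0.12 and 0.09 on the Chd7f/f arrays. Groups overlapped, and the arrays numbered 1 were the lowest of each genotype. Of 46 other genes of glucose, glycogen and pyruvate metabolism, 37 were tested, 11 were higher and 26 lower, none passed (limma, adjusted p = 0.9998 at the smallest), and their median was -0.072; without Chd7f/f replicate 1, 16 were higher and 21 lower, with a median of -0.018. Pcx, pyruvate carboxylase, was the 1 gene with an unadjusted p under 0.05, at 6.31, 7.13 and 7.37 on the control arrays and at 4.52, 5.09 and 6.68 on the Chd7f/f arrays, with overlapping groups and a difference of -1.51 (SE 0.59). Its values in Chd7f/f replicates 1 and 2 lie near the array medians, where a level may be background. Its adjusted p from limma was 0.9998. Pygl, the liver-type glycogen phosphorylase, differed by -0.34, Prps1, which makes the activated ribose of nucleotides, by -0.61 and Pck2, the mitochondrial carboxykinase, by -0.27.

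Steps that draw on pyruvate and on glycolytic intermediates were lowest in Chd7f/f replicate 1. The 15 tested genes of the citric acid cycle had means of -0.025, 0.077 and 0.11 on the control arrays and -0.49, 0.20 and 0.12 on the Chd7f/f arrays, and 13 of the 15 were lowest on that array. The 7 genes of serine and one-carbon synthesis, which starts from a glycolytic intermediate, had means of 0.13, 0.019 and 0.19 on the control arrays and -1.05, 0.36 and 0.35 on the Chd7f/f arrays, and all 7 were lowest there. The gaps were uneven. Chd7f/f replicate 1 lay below the other 5 arrays by 1.28 to 1.72 for Shmt1, Mthfd1, Mthfd2 and Shmt2. For Psph, Psat1 and Phgdh, which lead from that intermediate to serine, it did so by only 0.078 to 0.44. The widest gap was that of Shmt2, the mitochondrial serine hydroxymethyltransferase. Shmt2 was at 11.37, 11.13 and 11.17 on the control arrays and at 9.41, 11.41 and 11.29 on the Chd7f/f arrays. Of the citric acid cycle genes 1 was higher and 14 lower in Chd7f/f leukemias and of the serine genes 3 and 4, with medians of -0.089 and -0.23 and 0 passing in either list (limma, 0 also at an unadjusted p under 0.05). All 17 tested proliferation genes were lowest on the same array, their mean at -1.56 against -0.094 to 0.46 elsewhere, with 0 higher and 17 lower in Chd7f/f, a median of -0.53 and 0 passing (limma; 0 also at an unadjusted p under 0.05). Without Chd7f/f replicate 1 these lists turned: 14 of 15 citric acid cycle genes, 6 of 7 serine genes and 16 of 17 proliferation genes were then higher in Chd7f/f, with medians of 0.11, 0.24 and 0.16. Mcm4, a subunit of the replicative helicase, was at 10.77, 9.89 and 10.23 on the control arrays and at 8.56, 10.31 and 10.19 on the Chd7f/f arrays. The part of cell division in the low values of Pfkl, Tpi1, Pgk1 and Slc16a1 was not tested.

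**Figure D5:**
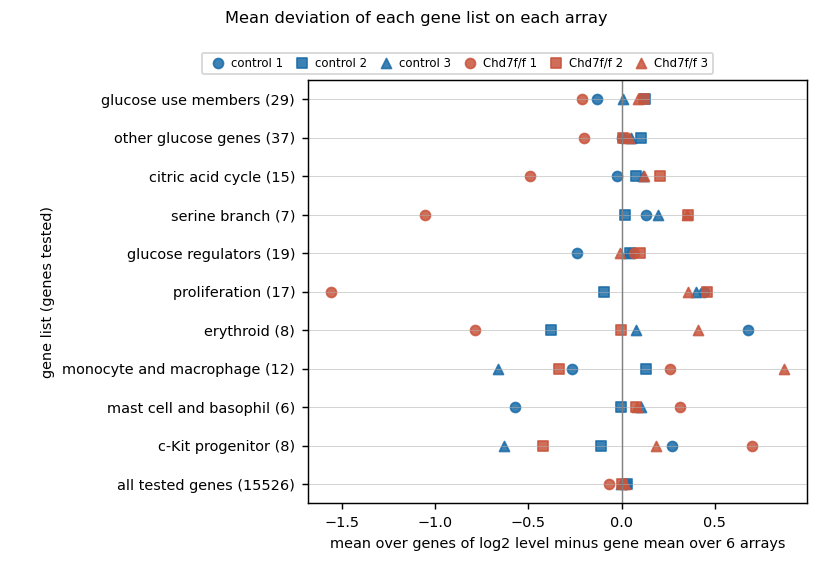
Mean, over the tested genes of each list (rows, number in brackets), of the log2 level minus the gene's mean over 6 arrays (x axis); blue is control, red Chd7f/f, and the shape gives the replicate. Chd7f/f replicate 1 is the lowest array for the glucose use genes (-0.21), the citric acid cycle (-0.49), the serine branch (-1.05) and proliferation (-1.56). The same array is the lowest for other glucose genes (-0.20), erythroid genes (-0.79) and all tested genes (-0.068).

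Regulators of glucose use also varied by array. Of 19 tested regulators 12 were higher and 7 lower, with a median of 0.048, and 0 passed at an adjusted or unadjusted p under 0.05 (limma). Hif1a, the oxygen-regulated subunit of hypoxia-inducible factor, was at 8.15, 8.85 and 9.02 on the control arrays and at 9.32, 9.60 and 9.02 on the Chd7f/f arrays. The 3 Chd7f/f values lay above the control values for 3 of the 19 regulators, Hif1a, Arrdc4 and Arnt (difference 0.11), and for 2.45% of all genes. They lay below for 0 regulators and 4.37% of all genes. For Hif1a the difference was 0.64 (SE 0.27). Its lowest Chd7f/f value exceeded the highest control value by less than 0.01, its adjusted p from limma was 0.9998, and without control replicate 1 the difference was 0.38. Egln1, a prolyl hydroxylase that marks HIF for destruction, differed by 0.54 (0.25 without that array), Arrdc4, a glucose-responsive arrestin, by 0.21 and Mlxip, a glucose-sensing factor, by 0.38 (0.063 without Chd7f/f replicate 1). Without control replicate 1, 10 regulators were higher and 9 lower, with a median of 0.0027. Myc was at 10.20, 10.55 and 10.45 on the control arrays and at 9.41, 10.90 and 10.31 on the Chd7f/f arrays. It was lowest in Chd7f/f replicate 1, as were 12 of the 29 members, Pfkl, Tpi1, Pgk1 and Slc16a1 among them, and 27.7% of all tested genes. The part of Myc in these low values was not tested.

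Of 12 tested genes outside glycolysis that hypoxia-inducible factors are known to drive, 7 were higher and 5 lower, with a median of 0.079 and 0 passing (limma; 0 also at an unadjusted p under 0.05). Without control replicate 1, 5 were higher and 7 lower, with a median of -0.019. On that array, where Hif1a was lowest, 3 of the 12 were at their lowest and 5 at their highest, and the mean of the list was 0.24 against -0.17 to 0.036 elsewhere. Vegfa, which encodes a vascular growth factor, was at 6.93 there against 9.12 to 9.81 elsewhere, and P4ha1, which encodes a collagen prolyl hydroxylase, at 8.65 against 4.46 to 5.37. The lower values of P4ha1 lie near the array medians, where a level may be background. Vegfa, P4ha1 and Myc were named after their values were seen. Higd1a, which encodes a mitochondrial protein, was at 7.28, 5.61 and 5.35 on the control arrays and at 4.91, 5.02 and 5.05 on the Chd7f/f arrays. Its Chd7f/f values lay below the control values, as for 4.37% of all genes, but near the array medians, where a level may be background. The difference was -1.09 (SE 0.50), or -0.49 without control replicate 1. Its adjusted p from limma was 0.9998.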

How the data were processed

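Expression was measured on Affymetrix mouse Gene ST 2.0 arrays, 1 per sample. The deposited values are log2 levels per probe set, made by the authors with Affymetrix Expression Console and RMA, per the submitters' processing notes; the annotation build is not given in the sources used here, and probe set positions are not used. RMA brings the arrays to a common distribution, so a shift of all genes would not show; precision is set by how few arrays there are.

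Of 41345 probe sets, 23521 are annotated to 1 symbol, 1814 to several and 16010 to none. For each of 22180 symbols the probe set with the highest mean was kept, and 15526 genes at or above the 30th percentile (4.13) were tested. Genotypes, taken from the sample titles, entered limma (version 3.58.1, R 4.3.3) through lmFit and eBayes with a constant prior, with Benjamini-Hochberg adjustment over all tested genes and a threshold of 0.05. Isoform pairs were compared by exact two-sided permutation of the 6 arrays. On simulated data with 200 changed genes in each of 5 sets, this comparison recovered 43.6%, 84.8% and 90.3% of changes of 1, 2 and 3 log2 units, with 45 false calls. The simulated noise was drawn separately for each gene, without arrays that stand apart over many genes as in these data. These shares may therefore not hold for the measured genes.

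Every measured member is named. All 6 values are given for members with an isoform partner or a range among the 10 largest, and in part for the others. Of the other lists up to 4 genes with the smallest p are named, apart from the serine list, which is named in full. The members and lists were chosen with earlier results of these data known. Alternatives were a further quantile normalization, median centring, other filters, averaged probe sets, a trended prior, array weights, a replicate block and leaving out arrays; leaving out arrays for the other lists was added after the data were seen. Genes with near-identical copies, such as Gapdh, are uncertain.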

Additional observations from a re-analysis of the deposited data

How the results depend on the processing

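No glucose use gene passed the adjusted threshold under any setting tried, and none of the tested genes did either; 159 to 571 genes had an unadjusted limma p under 0.05 over the settings. An unadjusted p under 0.05 was reached by 2 members, Slc16a3 (-1.08) and Hk2 (0.715), when control replicate 3 was left out, and by none under the other settings. The median difference of the members stayed within the spread between replicates, from -0.079 to 0.12 with 1 array left out. With the replicate number as a block, 332 genes had an unadjusted limma p under 0.05, 0 members did, and no direction changed. Over all tested genes, deviations on arrays of the same number had correlations of 0.027, -0.025 and 0.034. Those on arrays of different numbers ran from -0.099 to 0.089. The titles do not say whether the number pairs the arrays, and these correlations cannot tell. Without both arrays numbered 1, a setting chosen after seeing the data, 14 of 29 members changed direction, and 15 did without control replicate 1. The differences that changed direction were 0.023 for Aldoc after a further quantile normalization, 0.034 for Hk1 and 0.0045 for Aldoc after median centring, -0.046 for Gapdh, -0.0082 for Pgam1 and 0.24 for Slc2a3 minus Slc2a1 with probe sets averaged, and 0.043 for Pfkp, 0.038 for Pgk1, 0.53 for Pklr, -0.012 for Pfkm minus Pfkl and 0.43 for Pklr minus Pkm with array weights. Without both arrays numbered 1 they were -0.046 for Slc2a1, -0.23 for Slc2a3, 0.11 for Hk1, -0.043 for Pfkm, 0.11 for Pfkp, -0.069 for Pfkfb2, -0.17 for Pfkfb3, 0.0035 for Tpi1, 0.14 for Pgk1, -0.091 for Pgam1, -0.014 for Eno2, 1.03 for Pklr, 0.076 for Slc16a1, 0.11 for Pdk1, -0.50 for Pfkm minus Pfkl, 0.15 for Pfkp minus Pfkm, 0.99 for Pklr minus Pkm, -0.097 for Pfkfb3 minus Pfkfb2 and 0.0088 for Pfkfb4 minus Pfkfb3. Leaving out 1 array at a time gave differences of -0.079 to 0.88 for Slc2a1, -0.26 to 0.73 for Slc2a3, -0.20 to 0.16 for Hk1, -0.012 to 0.16 for Hk3, -0.43 to 0.59 for Pfkl, -0.21 to 0.82 for Pfkm, -0.25 to 0.19 for Pfkp, -0.047 to 0.15 for Pfkfb2 and -0.40 to 0.23 for Aldoc. The same omissions gave -0.025 to 0.062 for Gapdh, -0.39 to 0.12 for Pgk1, -0.13 to 0.24 for Pgam1, -0.14 to 0.31 for Eno2, -0.12 to 0.24 for Pkm, -1.55 to 0.68 for Pklr, -0.52 to 0.12 for Slc16a1, -0.49 to 0.035 for Pdk1 and -0.077 to 0.25 for Pdk3. They gave -0.17 to 0.015 for Pdha1, -0.28 to 0.35 for Pgd, -0.043 to 0.42 for Taldo1, -0.0085 to 0.33 for Hk3 minus Hk1, -0.40 to 0.17 for Pfkp minus Pfkl, -0.11 to 0.81 for Pfkm minus Pfkl, -0.89 to 0.072 for Pfkp minus Pfkm, -1.54 to 0.80 for Pklr minus Pkm, -0.30 to 0.10 for Slc2a3 minus Slc2a1 and -0.098 to 0.58 for Pdk3 minus Pdk1. The remaining members and pairs kept their direction under each of these settings, and the cause was not tested. The values carry no detection call used here, so Hk3, Pfkfb4 and Eno2, near the array medians, and Ldhb, close to the filter level of 4.13, may be background. With the filter at the 50th percentile, 25 of the 29 members remained.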
